A study of Mus musculus with 32 samples.

Results

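Slc4a8, Gm49492, Mettl7a2, Mettl7a3, Zfp641 and Slc38a2 are 6 genes of mouse chromosome 15 that lie within 5 Mb of Acvr1b, the gene that the study deleted from myofibres. They are 6 of the 55487 genes in the count table, and 6 of the 338 genes whose centres lie within 5 Mb of the centre of Acvr1b. They were selected on their measured levels, because these shifted in the mice with a targeted Acvr1b. The difference between those mice and the others therefore chose the genes, and it is given below as a description with no test. All 6 passed the filter on low counts in both muscles.

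PolyA RNA was sequenced from 2 muscles of the left leg of each of 16 mice, the gastrocnemius medialis with mostly fast fibres and the soleus with more slow fibres. The 4 genotypes, each with 4 mice, were Acvr1b KO, a double KO of Acvr1b and Tgfbr1, Tgfbr1 KO and control. Tamoxifen given at 6 weeks of age started the deletion, which the labels call specific to myofibres, and the muscles were taken 3 months later. The 8 Acvr1b KO and double KO mice are called carriers of the targeted Acvr1b allele here, and the 8 mice labelled Tgfbr1 KO or control are called non-carriers. The same tamoxifen text stands with the control samples. The labels do not name the promoter that drove Cre, the strain in which the allele was made, or whether control mice carried floxed alleles. In every carrier the deletion of Acvr1b and the chromosome segment around the targeted allele came together. Whether any non-carrier had that segment without the deletion is not stated, so deletion and segment cannot be told apart here. The animal numbers of the double KO mice, and likewise those of the control mice, lie in a range of their own, while those of Acvr1b KO and Tgfbr1 KO overlap. The labels do not say whether a number marks a litter or a date, so its part in the results was not tested. RNA came from whole muscle with all its cell types, in which fewer cells of a type and less RNA per cell cannot be told apart.

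Acvr1b encodes a type I receptor for activins and myostatin, which signals through SMAD2 and SMAD3 and restrains muscle growth. Genes that lie close to a targeted allele are inherited with it more often than distant genes. Of the genes described here, Slc4a8 encodes a sodium-driven chloride and bicarbonate exchanger best known from neurons, and Slc38a2 encodes SNAT2, a sodium-coupled transporter of neutral amino acids that cells induce when amino acids are scarce. Mettl7a2 and Mettl7a3 belong to a small family of putative methyltransferases, Zfp641 encodes a zinc finger protein, and Gm49492 is annotated as a long non-coding RNA from a bidirectional promoter.

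Levels are CPM, a gene's count divided by the size of its library, with all 32 libraries scaled together by TMM factors, and are given for replicates 1 to 4 in order. Acvr1b itself (chr15:101174067-101213684, plus strand, GRCm38) had 27.2, 26.6, 24.9 and 23.7 CPM in Acvr1b KO gastrocnemius and 23.4, 17.04, 14.03 and 15.5 in double KO gastrocnemius. It had 104, 70.1, 88.1 and 77.7 CPM in the libraries labelled Tgfbr1 KO and 94.2, 117, 103 and 112 in controls. In soleus its mean was 12.4 ± 1.16 CPM in Acvr1b KO, 8.58 ± 1.55 in double KO, 27.3 ± 4.61 in Tgfbr1 KO and 40.5 ± 7.82 in control (SD, n = 4 each). Carriers and non-carriers did not overlap in either muscle. Between double KO and Acvr1b KO gastrocnemius Acvr1b fell by 0.54 on the log2 scale (SE 0.148, edgeR adjusted p = 0.0186). The level of Tgfbr1 did not mark the mice labelled as its knockouts. It was 47.8 ± 7.38 CPM in double KO and 26.9 ± 3.45 in Acvr1b KO gastrocnemius, and 29.5 ± 3.33 in libraries labelled Tgfbr1 KO and 28.5 ± 6.75 in control. In soleus it was 24.9 ± 17.6 CPM in double KO and 13.5 ± 4.00 in Acvr1b KO, and 14.5 ± 3.03 in libraries labelled Tgfbr1 KO and 15.7 ± 1.75 in control. Of the soleus double KO libraries, replicate 1 had 51.23 CPM and the others 14.68 to 17.04. Soleus controls had 13.55 to 17.22 CPM. These levels do not show the loss that the Tgfbr1 labels name. A count over a whole gene also takes reads from exons outside a deleted part, so the levels cannot check the labels either way. In all comparisons below, Tgfbr1 KO and double KO mean the libraries labelled so.

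Libraries held 16535498 to 54456977 counts. Soleus double KO 1 stood apart, with a mean Pearson correlation of 0.948 with the other 3 of its group, against 0.971 to 0.976 for those 3. Its slow fibre markers summed to 8065 CPM, against 16660 to 18260 in the other 3. Soleus Acvr1b KO 1 had the lowest mean correlation of its group, 0.975 against 0.984 to 0.986. Its fibroblast markers summed to 180 CPM, against 646 to 778 in the others of its group. Its endothelial markers summed to 769 CPM, against 455 to 508. Gastrocnemius double KO 1, Tgfbr1 KO 1 and control 1 had the lowest mean correlations of their muscle, 0.98 each. Mitochondrial genes held 25.99% of the counts of gastrocnemius control 1, against 10.35 to 19.27% in the other non-carriers of that muscle. The 6 fast fibre markers summed to 90810 to 150400 CPM in gastrocnemius libraries and 16710 to 28020 in soleus libraries. The 6 slow fibre markers summed to 597.7 to 2071 CPM in gastrocnemius and 8065 to 22420 in soleus, so each muscle carried the fibre markers of its label.

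Slc4a8 and Gm49492 were the neighbours at lower levels in carriers. Slc4a8 (ENSMUSG00000023032, chr15:100761747-100823968, plus strand, 0.40 Mb from Acvr1b between gene centres) had 2.73, 2.91, 3.11 and 2.30 CPM in Acvr1b KO gastrocnemius and 2.09, 1.76, 1.31 and 2.19 in double KO gastrocnemius. Libraries labelled Tgfbr1 KO had 9.15, 7.28, 9.46 and 5.83 CPM and control libraries 12.1, 8.91, 8.63 and 7.64. All 8 carriers were below all 8 non-carriers, and the mean was 2.30 ± 0.601 CPM in carriers and 8.62 ± 1.84 in non-carriers (SD, n = 8 each). In soleus it had 3.63, 3.11, 3.82 and 3.08 CPM in Acvr1b KO and 2.11, 2.96, 3.95 and 2.85 in double KO. Soleus of Tgfbr1 KO had 9.51, 8.40, 7.34 and 6.97 CPM and of control 7.90, 7.99, 8.44 and 10.1. The groups were again apart, at 3.19 ± 0.601 CPM in carriers and 8.33 ± 1.04 in non-carriers. The fitted log2 difference, carriers minus non-carriers, was -1.92 (SE 0.140) in gastrocnemius and -1.38 (SE 0.117) in soleus.

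Gm49492 (ENSMUSG00000116180, chr15:100600204-100602766, plus strand) lies 0.59 Mb from Acvr1b, and its start is 220 bases from that of Pou6f1, a POU homeobox gene read from the opposite strand. It had 0.251, 0.433, 0.432 and 0.384 CPM in Acvr1b KO gastrocnemius and 0.360, 0.558, 0.101 and 0.737 in double KO gastrocnemius. Tgfbr1 KO libraries had 1.31, 1.79, 1.92 and 1.56 CPM and controls 1.86, 1.964, 1.94 and 1.11. The lowest non-carrier was above the highest carrier, as it was in soleus. There the levels were 0.755, 1.04, 0.864 and 1.05 CPM in Acvr1b KO and 0.651, 0.986, 0.911 and 0.854 in double KO, against 3.13, 2.07, 2.87 and 2.14 in Tgfbr1 KO and 2.74, 2.52, 1.596 and 2.33 in control. The log2 difference was -2.04 (SE 0.248) in gastrocnemius and -1.44 (SE 0.144) in soleus. Its counts were fractional in 19 of the 32 libraries, since the counting shared a read among its alignments. Pou6f1, whose reads are told apart by strand, averaged 14.8 ± 1.02 CPM in carriers and 18.1 ± 1.23 in non-carriers of gastrocnemius (SD, n = 8 each), a log2 difference of -0.28.

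**Figure D1:**
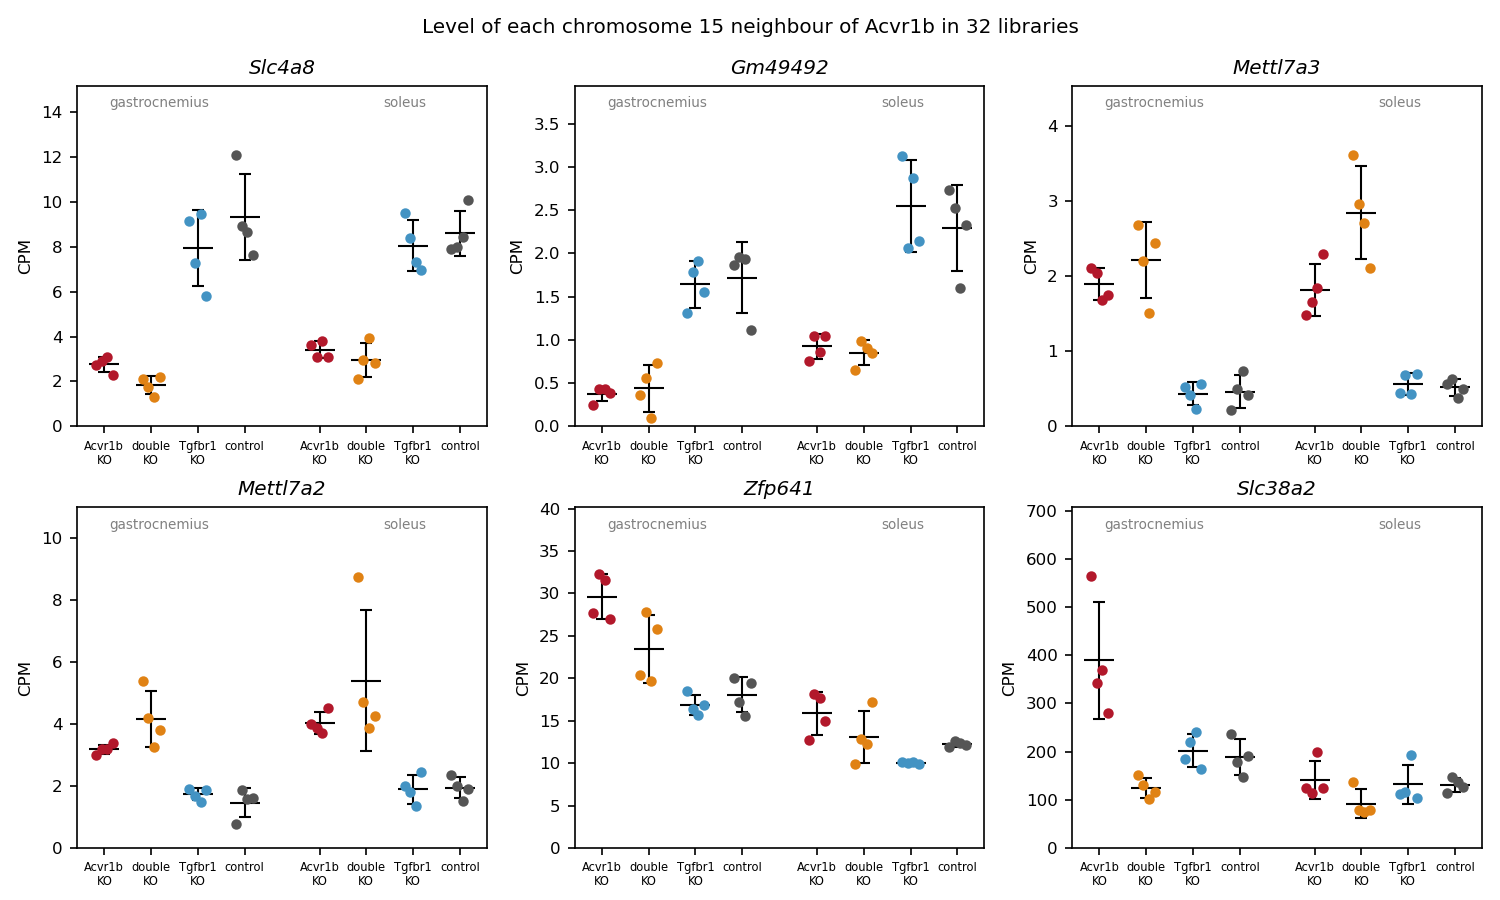
CPM of the 6 genes (vertical axes from 0, each with its own scale) in the 4 genotypes of gastrocnemius (left 4 positions) and soleus (right 4). Points are libraries and black bars the mean and SD over 4; Slc4a8 and Gm49492 sit lower and Mettl7a2 and Mettl7a3 higher in Acvr1b KO and double KO, while Slc38a2 averages 389 CPM in Acvr1b KO gastrocnemius and 125 in double KO gastrocnemius.

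Mettl7a2 and Mettl7a3 were at higher levels in carriers. Mettl7a3 (ENSMUSG00000058057, chr15:100334929-100340375, plus strand, 0.86 Mb away) had 2.10, 2.04, 1.68 and 1.74 CPM in Acvr1b KO gastrocnemius and 2.68, 2.20, 1.51 and 2.44 in double KO gastrocnemius. Tgfbr1 KO libraries had 0.523, 0.421, 0.235 and 0.568 CPM and controls 0.213, 0.498, 0.732 and 0.413, so the groups did not overlap. In soleus it had 1.49, 1.66, 1.84 and 2.29 CPM in Acvr1b KO and 3.60, 2.96, 2.71 and 2.11 in double KO, against 0.447 to 0.699 in Tgfbr1 KO and 0.380 to 0.631 in control. The log2 difference was 2.20 (SE 0.203) in gastrocnemius and 2.08 (SE 0.163) in soleus, which was the widest of the 6 genes in both. Mettl7a2 (ENSMUSG00000056487, chr15:100353200-100361840, plus strand, 0.84 Mb away) had 3.01, 3.19, 3.19 and 3.37 CPM in Acvr1b KO gastrocnemius and 5.40, 4.17, 3.25 and 3.81 in double KO. Tgfbr1 KO had 1.90, 1.68, 1.49 and 1.88 CPM and control 0.772, 1.85, 1.57 and 1.60. In soleus the ranges were 3.71 to 4.52 CPM in Acvr1b KO, 3.86 to 8.75 in double KO, 1.34 to 2.46 in Tgfbr1 KO and 1.52 to 2.35 in control, with the top value in double KO 1. The groups did not overlap in either muscle, and the log2 difference was 1.21 (SE 0.146) in gastrocnemius and 1.30 (SE 0.178) in soleus.

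Mettl7a1, Mettl7a2 and Mettl7a3 stand side by side within a short stretch and are near-identical in coding sequence, so some reads cannot be given to a single copy. The first 120 coding bases of each (GENCODE M21 transcripts, GRCm38) show how few positions tell the copies apart. Capitals mark the 9 positions of this stretch at which the 3 copies are not all the same.
Mettl7a1: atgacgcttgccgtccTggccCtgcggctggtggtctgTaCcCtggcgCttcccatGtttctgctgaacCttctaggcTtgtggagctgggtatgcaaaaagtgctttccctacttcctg
Mettl7a2: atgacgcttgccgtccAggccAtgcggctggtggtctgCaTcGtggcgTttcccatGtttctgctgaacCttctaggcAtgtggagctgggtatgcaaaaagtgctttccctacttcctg
Mettl7a3: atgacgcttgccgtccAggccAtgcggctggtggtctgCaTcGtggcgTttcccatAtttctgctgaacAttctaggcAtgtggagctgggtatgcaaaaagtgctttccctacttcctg
Each coding sequence has 732 bases, of which 725 are shared by Mettl7a2 and Mettl7a3 (99%), 693 by Mettl7a1 and Mettl7a2 (94.7%) and 690 by Mettl7a1 and Mettl7a3 (94.3%). Mettl7a2 and Mettl7a3 share an unbroken run of 258 bases, and 39.1% of the 50-base windows of the Mettl7a2 transcript occur in that of Mettl7a3. Of the windows of the Mettl7a1 transcript fewer are shared, 22.1% with Mettl7a2 and 10.9% with Mettl7a3. Counts were fractional in 24 libraries for Mettl7a2, 32 for Mettl7a3 and 28 for Mettl7a1, so the split between copies is uncertain.

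The sum over the 3 copies does not depend on that split for reads shared among them. It was 25.8 ± 4.20 CPM in carriers and 17.5 ± 1.41 in non-carriers of gastrocnemius (SD, n = 8 each). The ranges, 21.6 to 32.8 in carriers and 15.7 to 19.7 in non-carriers, did not overlap. In soleus they were 25.4 to 55.6 CPM in carriers and 14.5 to 24.8 in non-carriers, with the top value again in double KO 1. Mettl7a2 and Mettl7a3 together made up 18.5 to 24.6% of the sum in carriers and 6.10 to 13.8% in non-carriers of gastrocnemius. The 6.10% was that of control 1, and the other non-carriers lay at 10.95 to 13.8%. In soleus Mettl7a2 and Mettl7a3 made up 21.3 to 22.9% in carriers and 10.5 to 13.5% in non-carriers. Between double KO and Acvr1b KO 4 against 4 libraries allow no p below 0.0286 before adjustment, so the tests below do not show that the share was the same. It was 21.6 ± 2.50% in double KO and 22.8 ± 0.185% in Acvr1b KO gastrocnemius (exact permutation test, 2-sided, p = 0.486, adjusted p over 8 such tests 0.587, n = 4 each), and 22.3 ± 0.718% in double KO and 21.8 ± 0.488% in Acvr1b KO soleus (exact p = 0.343, adjusted 0.587). The sum was 29.3 ± 2.88 CPM in double KO and 22.3 ± 0.578 in Acvr1b KO gastrocnemius, with no overlap (exact p = 0.0286, adjusted 0.229).

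Mettl7a1, 0.88 Mb from Acvr1b, held most of that sum. Its mean was 22.9 ± 1.53 CPM in double KO, 17.2 ± 0.430 in Acvr1b KO, against 15.7 ± 1.34 in Tgfbr1 KO and 15.2 ± 0.942 in control gastrocnemius (SD, n = 4 each). The double KO exceeded the Acvr1b KO in gastrocnemius by 0.42 on the log2 scale (SE 0.082, edgeR adjusted p = 0.00196), and the 4 libraries of each did not overlap. In soleus the same difference was 0.47 (SE 0.207, edgeR adjusted p = 0.423). Mettl7b, the family member on chromosome 10, was at 0 to 0.126 CPM in gastrocnemius and did not pass the filter.

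**Figure D2:**
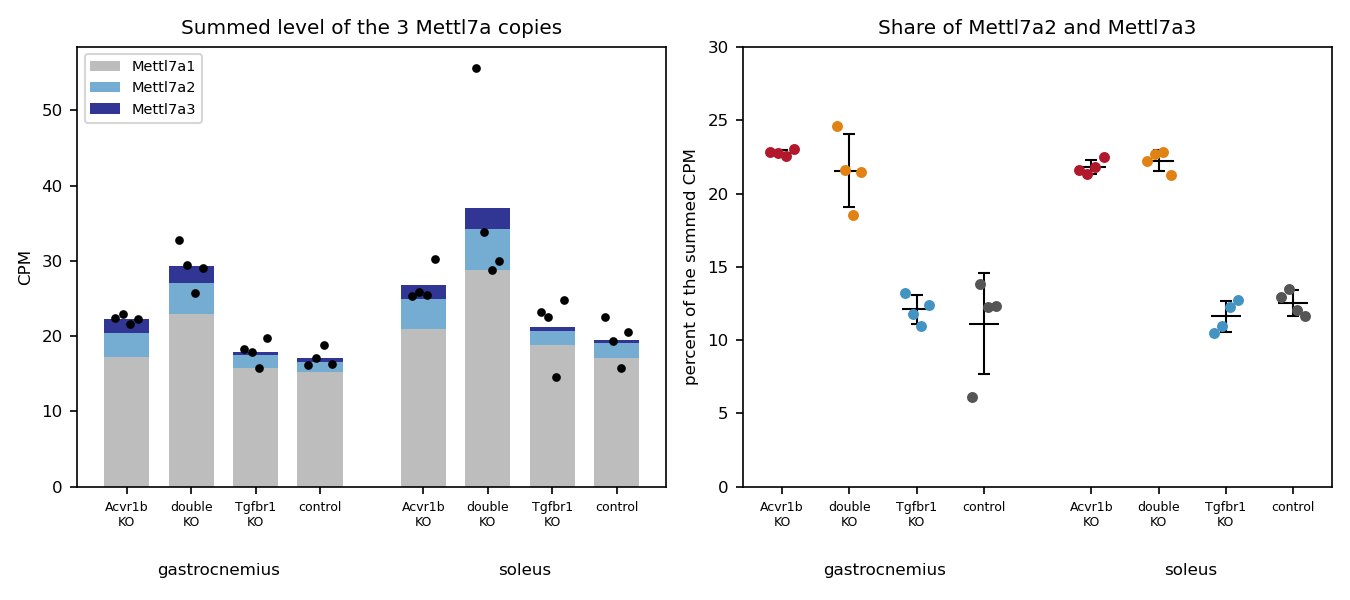
Left, mean CPM of Mettl7a1, Mettl7a2 and Mettl7a3 stacked for each genotype and muscle, with the sum in each library as a black point; right, the percent of that sum given to Mettl7a2 and Mettl7a3, with mean and SD over 4 libraries. The share is 18.5% or more in every Acvr1b KO and double KO library and 13.8% or less in every other library.

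Zfp641 (ENSMUSG00000022987, chr15:98285585-98296161, minus strand, 2.90 Mb away) had 27.7, 32.3, 31.6 and 26.96 CPM in Acvr1b KO gastrocnemius and 20.4, 27.9, 19.7 and 25.8 in double KO gastrocnemius. Tgfbr1 KO libraries had 18.5, 16.4, 15.7 and 16.8 CPM and controls 20.1, 17.2, 15.6 and 19.5. All 4 Acvr1b KO libraries lay above every non-carrier, but the lowest double KO library (19.7) lay below the highest control (20.1), so carriers and non-carriers overlapped. In soleus the levels were 12.7, 18.2, 17.7 and 14.9 CPM in Acvr1b KO and 9.92, 12.9, 12.3 and 17.2 in double KO, against 10.1, 10.01, 10.1 and 9.91 in Tgfbr1 KO and 11.9, 12.6, 12.4 and 12.1 in control. The log2 difference between carriers and non-carriers was 0.60 (SE 0.082) in gastrocnemius and 0.38 (SE 0.096) in soleus.

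The promoters of Zfp641 and Slc4a8 are shown because these genes differed in opposite directions between carriers and non-carriers, and the bases CAGAC are the core of the DNA element that SMAD proteins bind. RefSeq promoter windows (GRCm38.p6), 250 bases before to 50 after the start, were searched for CAGAC and its reverse complement GTCTG. Capitals mark matches, and the matches of Zfp641 lie in 1 run of overlapping repeats.
Zfp641 promoter, chr15:98296112-98296411, minus strand: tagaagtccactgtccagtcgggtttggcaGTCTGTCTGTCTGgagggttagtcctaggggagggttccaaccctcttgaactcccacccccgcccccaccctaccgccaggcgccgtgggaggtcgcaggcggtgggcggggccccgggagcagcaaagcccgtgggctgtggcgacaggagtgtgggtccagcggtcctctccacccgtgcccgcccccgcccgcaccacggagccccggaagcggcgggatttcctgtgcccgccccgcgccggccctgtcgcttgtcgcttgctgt
Slc4a8 promoter, chr15:100761497-100761796, plus strand: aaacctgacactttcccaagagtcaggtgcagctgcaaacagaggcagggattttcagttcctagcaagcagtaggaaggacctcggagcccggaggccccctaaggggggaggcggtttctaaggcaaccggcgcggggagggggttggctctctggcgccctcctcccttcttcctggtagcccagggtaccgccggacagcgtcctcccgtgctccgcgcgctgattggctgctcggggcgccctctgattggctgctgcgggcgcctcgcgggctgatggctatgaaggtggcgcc
Of the 4 genes with a window, Zfp641 held 3 matches, Mettl7a2 held 1, and Slc4a8 and Slc38a2 held 0. Mettl7a2 was also higher in carriers, by 1.21 on the log2 scale in gastrocnemius against 0.60 for Zfp641. Its match lies 43 bases after the start. Whether matches go with the direction of a difference was not tested. Of all 32851 windows of the same length 49.6% held at least 1 match.

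Slc38a2 (ENSMUSG00000022462, chr15:96687392-96699730, minus strand) is the most distant of the 6, 4.50 Mb from Acvr1b, and does not show the shift for which the genes were grouped. It had 564, 343, 369 and 280 CPM in Acvr1b KO gastrocnemius, 151, 131, 101 and 116 in double KO, 184, 220, 240 and 165 in Tgfbr1 KO and 237, 178, 147 and 191 in control. Acvr1b KO was the highest group and double KO the lowest, and only 1 double KO library (151) reached into the range of the controls. The means of the 2 carrier genotypes thus lay on opposite sides of those of the non-carriers, and the mean log2 difference of carriers and non-carriers was 0.19 (SE 0.140). In soleus the levels were 125, 114, 200 and 124 CPM in Acvr1b KO, 136, 79.04, 74.8 and 78.3 in double KO, 112, 117, 193 and 104 in Tgfbr1 KO and 113, 147, 136 and 127 in control. All 4 groups overlapped there, and the log2 difference of carriers and non-carriers was -0.19 (SE 0.168).

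Per kb of exon, the order of the control levels in gastrocnemius was Slc38a2 at 21.3 ± 4.26, Zfp641 at 4.21 ± 0.485, Mettl7a2 at 0.804 ± 0.260, Slc4a8 at 0.716 ± 0.148, Gm49492 at 0.671 ± 0.159 and Mettl7a3 at 0.281 ± 0.130 CPM per kb (SD, n = 4). Mettl7a2, Slc4a8 and Gm49492 lay within each other's spread. In Acvr1b KO gastrocnemius the order was Slc38a2 at 44.0 ± 13.8, Zfp641 at 6.91 ± 0.627, Mettl7a2 at 1.77 ± 0.0805, Mettl7a3 at 1.14 ± 0.129, Slc4a8 at 0.212 ± 0.0263 and Gm49492 at 0.146 ± 0.0335 CPM per kb.

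Carriers and non-carriers were compared over all genes to place the 6 among their neighbours. In gastrocnemius 1010 of 17536 genes (5.76%) had an edgeR adjusted p under 0.05, 5 of the 6 genes and Acvr1b among them. In soleus 5 of 18143 genes (0.0276%) did, namely Acvr1b, Mettl7a3, Gm49492, Slc4a8 and Mettl7a2. These counts include the contrast that chose the genes, so nothing is read from them for the 6. The gastrocnemius count also pools both carrier genotypes. There 5 genes passed for Acvr1b KO against control and 2255 for double KO against Tgfbr1 KO. A gene among the 1010 therefore need not differ in the Acvr1b KO mice. A stricter description is whether all 8 carriers lay on one side of all 8 non-carriers. That held for 20 genes in gastrocnemius (0.114%) and 13 in soleus (0.0717%), and for 5 genes in both muscles, which were Acvr1b, Slc4a8, Gm49492, Mettl7a2 and Mettl7a3. Without Acvr1b and the 6 genes, 4 of the 129 tested genes within 5 Mb were in that state in gastrocnemius (3.1%), namely Spats2, Gpd1, Csrnp2 and Pou6f1, 0 of the 537 further away on chromosome 15 and 11 of the 16863 on other chromosomes. In soleus the counts were 1 of 133 within 5 Mb (1700120C14Rik), 1 of 566 further away (Ano6) and 6 of 17437 on other chromosomes. Marker genes also differed when both carrier genotypes were pooled against the non-carriers of gastrocnemius. There 4 of 6 slow fibre and 3 of 6 endothelial markers were lower. Higher were 2 of 6 macrophage and 1 of 5 fibroblast markers. The low sums were those of double KO, at 239.8 to 262.4 CPM for endothelial and 597.7 to 1073 for slow fibre markers. Endothelial sums of Acvr1b KO, 309.9 to 344.7 CPM, lay inside the non-carrier range of 296.9 to 356.5. Its slow fibre sums, 1427 to 1592 CPM, likewise lay inside the non-carrier range of 1198 to 2071. In soleus, where few genes passed at all, 0 markers did, and the list medians on the log2 scale included 0.38 for neutrophil, 0.37 for Schwann cell and nerve and -0.20 for slow fibre markers, against 0.027 over all genes. The part of these markers in the levels of the 6 genes was not tested.

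Of the 10 genes flanking the 6, 3 passed the test between carriers and non-carriers of gastrocnemius, where 5.76% of all genes did. The neighbours of Slc4a8 on either side, Bin2 and Fignl2, had log2 differences of 0.37 (SE 0.299) and -0.05 (SE 0.138) between carriers and non-carriers of gastrocnemius. Asb8 and Kansl2 around Zfp641 had -0.09 (SE 0.072) and -0.03 (SE 0.058), and Slc11a2, next to Mettl7a2 toward higher coordinates, had -0.10 (SE 0.072). Slc38a1 and Slc38a4, which flank Slc38a2 and belong to its transporter family, had -0.14 (SE 0.171) and -0.25 (SE 0.074). C330013E15Rik, on the other side of Gm49492 from Pou6f1, had 1.10 (SE 0.302). Mettl7a1, the flank of Mettl7a3 toward lower coordinates and a copy that can share reads with it, had 0.37 (SE 0.058). The 3 that passed edgeR's test were Mettl7a1 (adjusted p = 0.00135), Pou6f1 (0.00657) and C330013E15Rik (0.0411), and the others had adjusted p of 0.0544 or more.

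Apart from Acvr1b and the 6 genes, 12 of 129 tested genes within 5 Mb (9.3%) passed the test in gastrocnemius, 6 higher and 6 lower in carriers. The share was 10.5% of 19 genes at 5 to 10 Mb, 10.7% of 121 genes at 10 to 20 Mb, 7.3% of 397 genes beyond 20 Mb and 5.62% of 16863 genes on other chromosomes. The 12 are named after their values were seen, and 0 of them passed in both muscles. The test pools both carrier genotypes, so a call does not show a shift in each. Higher in carriers were Rapgef3, Mettl7a1, Csrnp2, C330013E15Rik, Spryd3 and Zfp385a, and lower were Ddx23, Prkag1, Spats2, 1700120C14Rik, Gpd1 and Pou6f1. Csrnp2, a nuclear protein gene 0.71 Mb away, averaged 2.89 ± 0.703 CPM in carriers and 1.59 ± 0.227 in non-carriers (log2 difference 0.87, SE 0.136, edgeR adjusted p = 0.00124). Gpd1, the cytosolic glycerol-3-phosphate dehydrogenase, averaged 425 ± 57.0 CPM in carriers and 615 ± 74.3 in non-carriers (-0.53, SE 0.090, edgeR adjusted p = 0.00241). The non-coding gene 1700120C14Rik averaged 6.70 ± 2.10 CPM in carriers and 11.6 ± 1.91 in non-carriers (-0.82, SE 0.125, edgeR adjusted p = 0.00113), and in soleus 5.03 ± 1.80 in carriers and 12.1 ± 0.761 in non-carriers (-1.29, SE 0.253, edgeR adjusted p = 0.177). In soleus 0 of 133 such neighbours passed edgeR's test and 2 passed with DESeq2. At the edge of the window, 2610037D02Rik just inside at 4.98 Mb had a log2 difference of -0.28 and Ano6 just outside at 5.31 Mb had -0.26. Toward higher coordinates the last tested gene, Gm21178, was at 2.63 Mb.

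**Figure D3:**
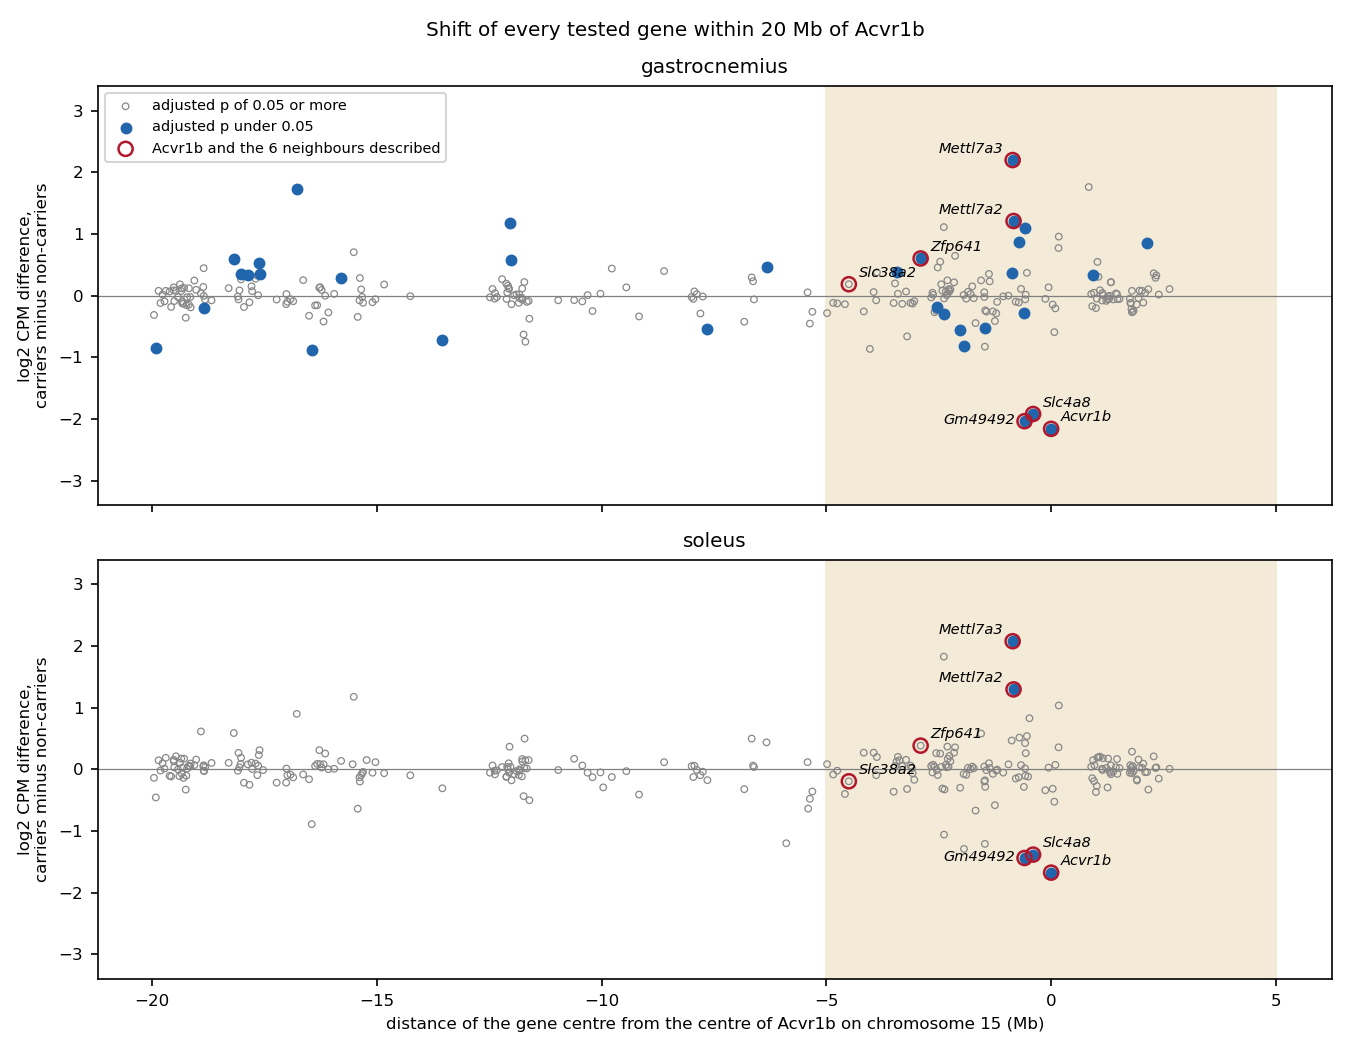
Log2 difference of carriers minus non-carriers (vertical) for every tested gene within 20 Mb of Acvr1b, by distance between gene centres in Mb, in gastrocnemius (top) and soleus (bottom). Filled blue points have an edgeR adjusted p under 0.05, red rings mark Acvr1b and the 6 genes, and the shaded band is the 5 Mb window; the 4 ringed neighbours nearest to Acvr1b stand apart from zero in both muscles, while Slc38a2 at 4.50 Mb lies at 0.19 and -0.19.

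The comparison within non-carriers, and for the 5 genes other than Slc38a2 that within carriers, lie outside the contrast that chose the genes and were tested over all genes. Slc38a2 is furthest from the non-carriers in Acvr1b KO gastrocnemius, so its choice may rest on those libraries, and its values within carriers are given with no test. Between Tgfbr1 KO and control, 0 of the 6 passed in gastrocnemius (30 of all genes passed, 0.171%) and 0 of the 6 in soleus (9 genes, 0.0496%). With edgeR the lowest unadjusted p among the 6 in these 2 comparisons was 0.0513, for Zfp641 in soleus at -0.29 (SE 0.137), and DESeq2 also called 0 of the 6. The 95% interval of this difference in gastrocnemius was -0.63 to 0.14 for Slc4a8, -0.69 to 0.59 for Gm49492, -0.76 to 0.68 for Mettl7a3, -0.20 to 0.72 for Mettl7a2, -0.35 to 0.14 for Zfp641 and -0.32 to 0.52 for Slc38a2.

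Between double KO and Acvr1b KO in gastrocnemius, 2852 of 17536 genes passed (16.3%). Slc38a2 averaged 125 ± 21.1 CPM in double KO and 389 ± 122 CPM in Acvr1b KO (SD, n = 4 each), a log2 difference of -1.63 (SE 0.203). The 4 libraries of each group did not overlap, as was the case for 26.2% of all genes, and the difference ranged from -1.77 to -1.39 over the alternatives. Of the other 5 genes 0 passed, with an unadjusted p under 0.05 for Slc4a8 and Zfp641. Over all genes 5219 of 17536 had an unadjusted p under 0.05, and so small a list does not set its count apart from that share. Slc4a8 differed by -0.58 (SE 0.208, edgeR adjusted p = 0.0672) and Zfp641 by -0.33 (SE 0.114, edgeR adjusted p = 0.0578). Both missed the threshold here and passed it with DESeq2, at adjusted p = 0.0406 for Slc4a8 and 0.0432 for Zfp641. DESeq2 called 3193 genes in this comparison. Mettl7a2, Mettl7a3 and Gm49492 differed by 0.39 (95% interval -0.02 to 0.79), 0.23 (-0.28 to 0.74) and 0.23 (-0.63 to 1.08). In soleus, where 23 of 18143 genes passed (0.127%) and 2030 had an unadjusted p under 0.05, 0 of the 5 passed with edgeR or DESeq2. Mettl7a3, at 0.65 (SE 0.209, edgeR adjusted p = 0.296), was the 1 gene of the 5 with an unadjusted p under 0.05. The value of Slc38a2 in soleus was -0.60 (SE 0.239). The libraries of double KO and Acvr1b KO soleus overlapped for all 6 genes, while 5.04% of all genes did not overlap. Without double KO 1, which stood apart, the soleus difference of Slc38a2 was -0.86, that of Mettl7a2 was 0.08 (0.44 with it), and that of Mettl7a3 was 0.51 (edgeR adjusted p = 0.414).

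How the Acvr1b difference varied with Tgfbr1 targeting is given as double KO minus Tgfbr1 KO, less Acvr1b KO minus control. For the 6 genes these values are a description with no test, since both parts compare carriers with non-carriers, as the choice of the genes did. Over all genes in gastrocnemius 376 passed edgeR's test (2.14%). For Slc38a2 the log2 value was -0.68 (SE 0.200) for double KO minus Tgfbr1 KO and 1.05 (SE 0.200) for Acvr1b KO minus control, and the difference between these was -1.74 (SE 0.283). The same 4 Acvr1b KO libraries enter this value and the one within carriers. For double KO minus Tgfbr1 KO the log2 value was -2.08 for Slc4a8 (SE 0.202), -1.90 for Gm49492 (SE 0.347), 2.34 for Mettl7a3 (SE 0.290), 1.28 for Mettl7a2 (SE 0.205) and 0.49 for Zfp641 (SE 0.116). For Acvr1b KO minus control it was -1.75 for Slc4a8 (SE 0.193), -2.17 for Gm49492 (SE 0.353), 2.06 for Mettl7a3 (SE 0.285), 1.15 for Mettl7a2 (SE 0.207) and 0.72 for Zfp641 (SE 0.115). The difference between the 2 was -0.33 for Slc4a8 (SE 0.277), 0.28 for Gm49492 (SE 0.505), 0.27 for Mettl7a3 (SE 0.418), 0.13 for Mettl7a2 (SE 0.292) and -0.23 for Zfp641 (SE 0.163). In soleus 0 of 18143 genes passed with edgeR or DESeq2 and 614 had an unadjusted p under 0.05, and Slc38a2 had -0.61 (SE 0.337).

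Markers of other cells also differed between double KO and Acvr1b KO gastrocnemius, where 16.3% of all genes passed, a share near which a count of 1 of 6 lies. All 5 adipocyte markers fell, with summed levels of 2.17 to 15.4 CPM in double KO and 17.4 to 51.8 in Acvr1b KO, and 5 of 6 slow fibre markers fell, with 597.7 to 1073 in double KO and 1427 to 1592 in Acvr1b KO. Of the Schwann cell and nerve markers 3 of 9 fell (35.7 to 42.2 CPM in double KO, 46.3 to 123 in Acvr1b KO), and of the endothelial markers 3 of 6 fell (239.8 to 262.4 CPM in double KO, 309.9 to 344.7 in Acvr1b KO). Macrophage markers rose for 2 of 6 (48.6 to 81.7 CPM in double KO, 40.2 to 54.4 in Acvr1b KO) and fibroblast markers for 2 of 5 (561 to 662 CPM in double KO, 488 to 590 in Acvr1b KO). Fast fibre markers rose for 1 of 6 and fell for 1 of 6 (90810 to 107000 CPM in double KO, 110400 to 124300 in Acvr1b KO). Their sums were thus lower in every double KO library than in any Acvr1b KO library. Of the neutrophil markers 0 of 4 passed. No marker of the lists other than neutrophil was at 0 in all libraries of a group, and 1 neutrophil marker was at 0 in double KO. The part of these markers in the Slc38a2 levels was not tested.

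**Figure D4:**
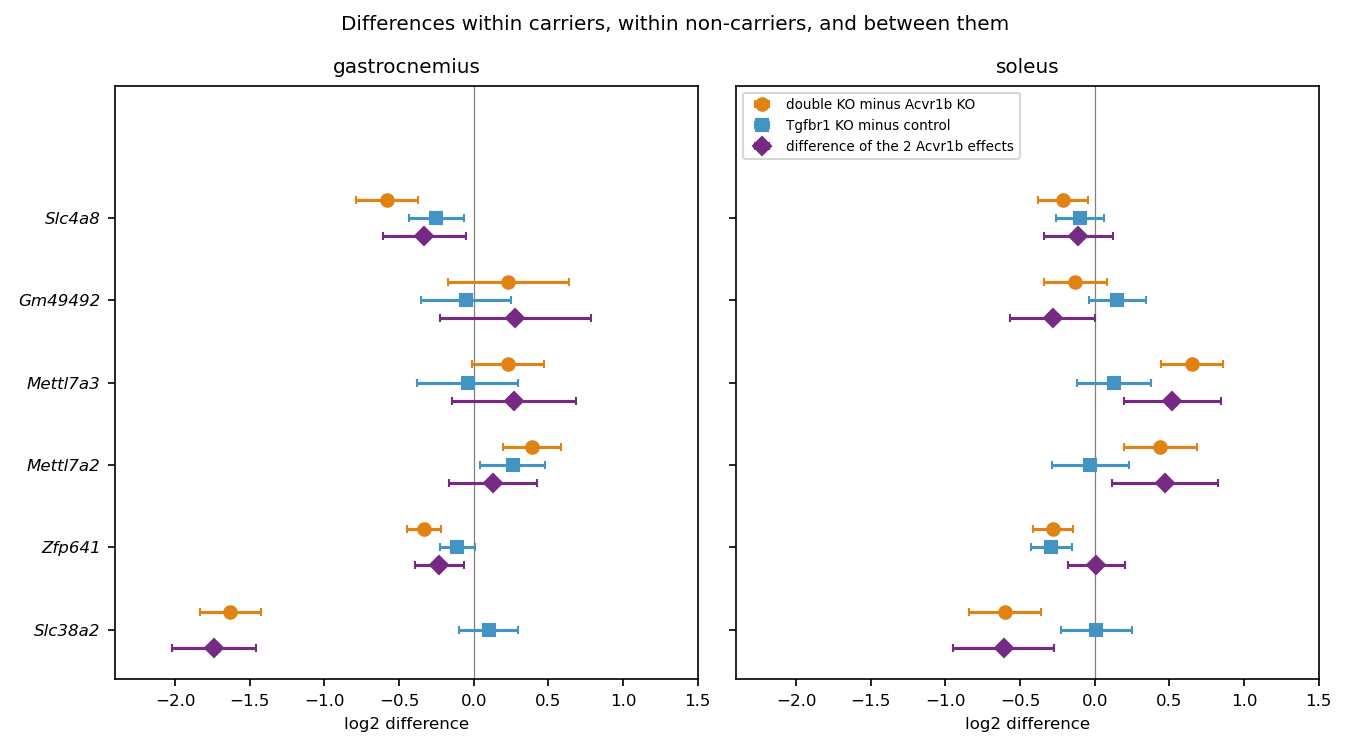
Log2 differences (horizontal, bars are 1 SE) of the 6 genes in 3 comparisons, in gastrocnemius (left) and soleus (right): double KO minus Acvr1b KO, Tgfbr1 KO minus control, and the difference of the 2 Acvr1b effects. Slc38a2 in gastrocnemius lies furthest from 0, at -1.63 and -1.74, and these values and the third comparison carry no test.

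The muscles differed in the level of 3 of the 5 genes other than Slc38a2 among carriers, where 55.9% of all genes passed, and of 3 of the 6 among non-carriers, where 56.1% did. The fit had a mean per group and no term for the mouse. Both muscles came from the same mice, so its p-values ignore that pairing. The median over all genes was 0.105 in carriers and 0.08 in non-carriers, soleus minus gastrocnemius on the log2 scale. Slc38a2 was lower in soleus in non-carriers, at -0.57 (SE 0.160, edgeR adjusted p = 0.00325), and its value in carriers, which include the Acvr1b KO libraries, was -0.95 (SE 0.161, no test). Zfp641 was lower in soleus, at -0.87 in carriers (SE 0.093, edgeR adjusted p = 4.97e-09) and -0.65 in non-carriers (SE 0.094, edgeR adjusted p = 8.88e-07). Gm49492 was higher in soleus, at 1.12 in carriers (SE 0.226, edgeR adjusted p = 0.000132) and 0.52 in non-carriers (SE 0.188, edgeR adjusted p = 0.0196). That last call was lost when any 1 of 4 non-carrier mice was left out (Tgfbr1 KO 1 or 3, control 1 or 4; adjusted p 0.0528 to 0.0793). Slc4a8 was higher in the soleus of carriers (0.49, SE 0.134, edgeR adjusted p = 0.00256) and had a difference of -0.04 (SE 0.123) in non-carriers. A call in carriers alone does not show that these values differ from each other. Mettl7a2 and Mettl7a3 passed in neither carriers nor non-carriers. With the mouse as a block, which keeps the pairing, Mettl7a2 passed in carriers (0.33, edgeR adjusted p = 0.0280). The difference of the carrier shift between muscles, soleus minus gastrocnemius, was 0.54 for Slc4a8 (SE 0.182), 0.60 for Gm49492 (SE 0.293), -0.38 for Slc38a2 (SE 0.225), -0.22 for Zfp641 (SE 0.132), -0.12 for Mettl7a3 (SE 0.264) and 0.08 for Mettl7a2 (SE 0.234). It is built from the shift that chose the genes and carries no test for them. Over all genes 10 passed edgeR's test (0.0534%).

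The genes with the most similar pattern were taken by Pearson correlation of log2 CPM over the 32 libraries, centred on the mean of each muscle, among 18726 genes. The libraries share the genotype groups and come as pairs from 16 mice, so these values only describe the pattern. For Slc4a8 the nearest were Acvr1b (0.945), Gm49492 (0.909) and Tmcc3 (0.844), and for Gm49492 they were Slc4a8 (0.909), Acvr1b (0.859) and Spats2 (0.771). For Mettl7a2 they were Mettl7a3 (0.943), Mettl7a1 (0.835) and Myod1 (0.821), and for Mettl7a3 they were Mettl7a2 (0.943), Parp10 (0.759) and Mettl7a1 (0.755). Mettl7a1, Mettl7a2 and Mettl7a3 can share reads. Zfp641 was closest to Tmem117 (0.798), another chromosome 15 gene 6.33 Mb from Acvr1b, then to Gm10432 (0.642) and Mettl7a3 (0.611). Slc38a2 was closest to Tbc1d1 (0.767), Zc3h4 (0.735) and Junos (0.725), which all lie on other chromosomes.

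Among the other genes of the 2 transporter families, most did not pass the tests. Over all genes in gastrocnemius 5.76% passed between carriers and non-carriers, and 16.3% between double KO and Acvr1b KO. Lists this small do not set their counts apart from these shares. Of 10 SLC4 transporters 7 were tested in gastrocnemius. Between carriers and non-carriers, apart from Slc4a8, Slc4a4, an electrogenic sodium bicarbonate cotransporter, was lower and 0 were higher, and the median of the 7 was -0.03, against 0.001 over all genes. Slc4a4 had 20.2 ± 4.66 CPM in double KO, 32.1 ± 4.63 in Acvr1b KO, against 39.7 ± 7.50 in Tgfbr1 KO and 38.5 ± 6.92 in control (-0.61, SE 0.122, edgeR adjusted p = 0.00671). In double KO against Acvr1b KO, Slc4a3, an anion exchanger, rose (0.95, SE 0.161, edgeR adjusted p = 0.000680) and Slc4a4 fell (-0.66, SE 0.173, edgeR adjusted p = 0.0144). Of 11 SLC38 transporters 8 were tested in gastrocnemius and 0 passed between carriers and non-carriers. Between double KO and Acvr1b KO, apart from Slc38a2, Slc38a3, a glutamine transporter, fell and 0 rose, and the median of the 8 was 0.06, against 0.003 over all genes. Slc38a3 had 51.7 ± 6.57 CPM in double KO and 108 ± 12.3 in Acvr1b KO (-1.06, SE 0.165, edgeR adjusted p = 0.000324).

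Slc38a2 is itself a gene of the amino acid response, and 10 of 11 other genes of that response were tested. In the contrast of double KO with Acvr1b KO 0 of the 10 passed in gastrocnemius, where 16.3% of all genes did, and 0 in soleus, where 0.127% did, with a median of 0.14 in gastrocnemius. So small a list does not set these counts apart from the shares over all genes. Atf4, its main transcription factor, had 131 ± 11.9 CPM in double KO and 136 ± 12.2 in Acvr1b KO gastrocnemius. Between carriers and non-carriers 1 of the 10, Sesn2, an inhibitor of growth signalling, was higher in gastrocnemius (0.42, SE 0.110, edgeR adjusted p = 0.0342), at 3.01 ± 0.202 CPM in double KO, 2.40 ± 0.327 in Acvr1b KO, against 2.17 ± 0.415 in Tgfbr1 KO and 1.86 ± 0.358 in control.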

How the data were processed

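The deposited table holds estimated counts per gene for 32 libraries. The authors made them with featureCounts 2.0.1 in the reverse-strand setting, sharing a read among all its alignments, on Ensembl release 102 gene models of GRCm38, per the file headers. Trimming used cutadapt and alignment HISAT2, per the submitters' processing notes. Symbols came from GENCODE M21, which matched 55141 of 55487 identifiers. Counts were rounded and each muscle was fitted with edgeR 4.0.16 (R 4.3.3) by its quasi-likelihood test over 4 genotypes, after filterByExpr and TMM scaling, with Benjamini-Hochberg adjustment over all tested genes and a threshold of 0.05. SEs came from edgeR's F statistic and 95% intervals from the t distribution with its degrees of freedom. A fit over all 32 libraries, with a mean per group and no term for the mouse, gave the contrasts of the muscles. DESeq2 1.42.0, other scalings, no filter, replicate blocks and leaving out libraries were the alternatives. The edgeR and DESeq2 fits across genes were tested on simulated data. Libraries held 16535498 to 54456977 counts, and each library of a group came from a different mouse.

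Named genes were the 6 neighbours, Acvr1b, Tgfbr1, the genes flanking each, the 3 most correlated with each, and fixed family lists. Members and lists were chosen with earlier results of these data known. Replicate numbers did not pair mice of different genotypes (median correlation of deviations 0.013 in gastrocnemius and -0.03 in soleus). The 2 muscles of a mouse are paired by the animal number in the labels (median 0.14). Differences built from the shift of carriers, and those of Slc38a2 that include Acvr1b KO libraries, are printed with no test, although tests had been planned. Exact permutation tests used scipy 1.17.1, and figures matplotlib 3.10.9.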

Additional observations from a re-analysis of the deposited data

Results flagged for a closer look

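In 4 of the 48 groups of 4 libraries checked for the 6 genes, 1 library lay far from the other 3 by Dixon's criterion (gap over range above 0.829), which chance gives for about 1 group in 20. For Gm49492 it was gastrocnemius control 4, at 1.11 CPM, against 1.86 to 1.964 in the other controls (gap over range 0.882). For Slc38a2 it was soleus Acvr1b KO 3, at 200 CPM (0.868), soleus double KO 1, at 136 CPM (0.931), and soleus Tgfbr1 KO 3, at 193 CPM (0.864). The summed Schwann cell and nerve markers were 708 CPM in soleus Acvr1b KO 3, 67.9 in double KO 1 and 101 in Tgfbr1 KO 3. They were 541 CPM in soleus double KO 2 and 626 in Tgfbr1 KO 4, where Slc38a2 was at 79.04 and 104 CPM.

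The Acvr1b difference of Slc38a2 in gastrocnemius went opposite ways with and without Tgfbr1 targeting. All 4 double KO libraries were below all 4 labelled Tgfbr1 KO, and all 4 Acvr1b KO libraries were above all 4 controls. The share of all genes that separate in this way was not counted for these comparisons. Between double KO and Acvr1b KO gastrocnemius it was 26.2%. The difference of the 2 log2 values was -1.74, and -2.02 to -1.49 over the alternatives. This difference was not tested here, since these libraries entered the choice of the gene.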

How the results depend on the processing

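Of 1380 values of the 6 genes under alternatives, 1367 kept their side of the threshold, 9 passed it newly and 4 lost it. In 28 the sign changed with neither value past the threshold, and 0 called values reversed. DESeq2 moved the number of genes called to 57 for Tgfbr1 KO against control in gastrocnemius (30 in the edgeR fit) and 19 in soleus (9), 63 for carriers against non-carriers in soleus (5), 152 for double KO against Acvr1b KO in soleus (23), 734 for the difference of the Acvr1b effects in gastrocnemius (376), 36 for the muscle difference of the carrier shift (10), and 19 and 2 for called neighbours in gastrocnemius (12) and soleus (0). Without a filter the counts were 17 for Tgfbr1 KO against control in soleus and 5 for the muscle difference. With only the compared groups 0 genes passed for double KO against Acvr1b KO in soleus, and with the replicate block 15 did. With the replicate block by mouse, 39 passed for the muscle difference. Leaving out the 3 gastrocnemius libraries least like their groups, chosen after seeing the data, gave 100 genes for Tgfbr1 KO against control, 1623 for carriers against non-carriers (1010), 4322 for double KO against Acvr1b KO (2852) and 792 for the difference of the effects. Leaving out 1 library at a time gave, in gastrocnemius and soleus, 21 to 44 and 4 to 18 genes for Tgfbr1 KO against control, 600 (without Acvr1b KO 2) to 1221 and 5 to 23 (without Acvr1b KO 1) for carriers, 2050 to 3701 and 8 to 30 for double KO against Acvr1b KO, and 232 to 548 and 0 for the difference of the effects. It gave 9666 to 10701 and 9636 to 11210 for the muscles in carriers and non-carriers, 5 to 46 (without double KO 1) for the muscle difference, and 8 to 15 and 0 to 1 for called neighbours. The cause of these moves was not tested. Between double KO and Acvr1b KO in gastrocnemius Slc4a8 reached adjusted p = 0.0284 without the 3 libraries (-0.66) and Zfp641 reached 0.0241 without double KO 2 (-0.42). Counts of Gm49492 were as low as 4 a library, which limits the precision of its differences.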
